A study of Arabidopsis thaliana with 9 samples.

Results

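Seedlings lacking normal LHP1 function were compared with wild-type seedlings, both under a mock solution, by sequencing of polyadenylated RNA from whole Arabidopsis thaliana seedlings. The comparison used 6 of the 9 libraries of the series: the 3 that the labels give as lhp1 with mock treatment (mock lhp1) and the 3 given as Col-0 with mock treatment (mock WT). All were from seedlings 6 days old, grown in liquid MS medium with sucrose, and the mock solution was ethanol diluted 5000-fold. The remaining 3 libraries, Col-0 treated with 5 µM jasmonate for 3 h (JA WT), entered the model for its estimate of spread and give a second set of wild-type levels. The labels name the mutant lhp1, and the column names of the count table write it lhp1-3. The design text calls the replicates biological, and the sources used here do not say how many seedlings a library held.

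LHP1 (LIKE HETEROCHROMATIN PROTEIN 1, also TERMINAL FLOWER 2) is a chromodomain protein that binds histone H3 trimethylated at lysine 27, the mark laid down by Polycomb repressive complex 2. In plants it works with PRC1-type proteins such as RING1 and EMF1 to keep marked genes silent. Plants lacking it are known for early flowering, small curled leaves and expression of floral homeotic genes outside flowers, with FT and AG among the known targets.

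The 6 mock libraries held 18081553 to 26851011 counts, the mock lhp1 libraries being the shallower ones, and 23045 to 23392 genes had at least 1 count in each. Values per library are CPM, counts scaled to a common library size with TMM factors, which were 0.959 to 1.03 in mock WT and 1.1 in each mock lhp1 library. CPM is not corrected for gene length, so it compares 1 gene across libraries and not genes with each other. The mock lhp1 libraries were close to each other, with a chi-square per degree of freedom between pairs of 2.47 to 3.68, against 20.8 to 37.9 between pairs of mock WT libraries.

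Mock WT replicate 2 lay between the genotypes. For each mock WT library in turn, genes changed at least 2-fold were chosen by a fit that left that library out, and the library was then placed on the CPM scale between the other 2 mock WT libraries (0%) and mock lhp1 (100%). Over the 843 genes higher in mock lhp1 chosen without it, replicate 2 lay at a median of 52% (quartiles 40.9% to 62.1%), and over the 685 lower genes at 48.9% (41% to 57.4%). It lay strictly between the groups for 82.7% of the higher and 86.4% of the lower genes. Replicates 1 and 3, placed the same way, had medians of −35.2% to 5.3% and lay between the groups for 7.1% to 14.4% of genes. Their 0% point and choice of genes included replicate 2, which pulls their positions down, so the placements are not like for like. The library labelled mock WT replicate 2 thus held intermediate levels of both sets of genes. The log2 change without that library therefore follows most gene tests, counts of calls are given without it for the lists and families where it moved them most, and the origin of its levels was not tested.

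**Figure D1:**
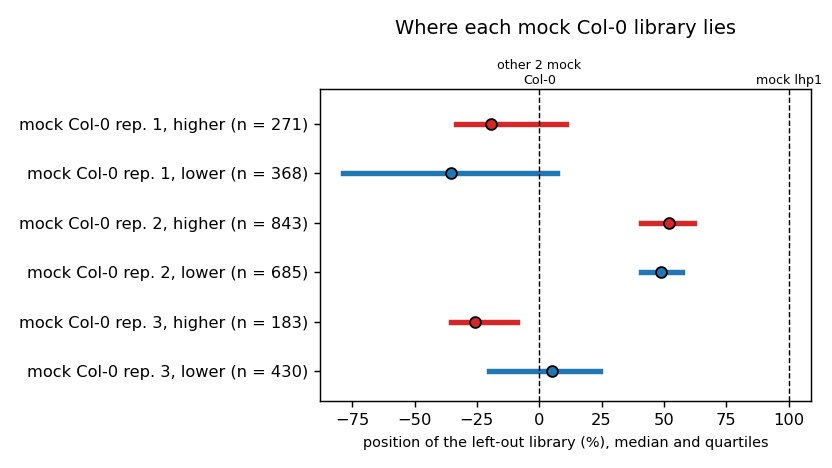
The horizontal axis gives the position of each mock WT (Col-0) library, in percent of the CPM distance that separates the mean of the 2 remaining wild-type libraries (0) from the mutant mean (100), over genes chosen without that library. Points are medians and bars span the quartiles; red is for genes higher and blue for genes lower in mock lhp1. Replicate 2 sits near the middle in both directions, with medians of 52% and 48.9%, while replicates 1 and 3, whose 0 point includes replicate 2, sit at or below 5.3%.

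Of 20986 tested genes, 2321 were higher in mock lhp1 (11.1% of those tested) and 3023 were lower (14.4%) at an edgeR adjusted p below 0.05. A change of at least 2-fold was seen for 387 of the higher and 478 of the lower genes. Groups of 3 and 3 libraries did not overlap for 44.6% of tested genes, 4500 of them higher and 4853 lower. Without mock WT replicate 2 the calls were 3295 higher (15.6% of 21111 tested) and 3571 lower (16.9%), with 843 and 685 of at least 2-fold. That count kept 2247 of the 2321 higher and 2959 of the 3023 lower genes, and no gene was called in opposite directions. The higher calls leaned more on single libraries: 879 were called in all 6 fits that left 1 library out, against 1791 of the lower calls. In RNA from whole seedlings, fewer cells of a type and less RNA per cell cannot be told apart.

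The mutated gene itself was lower. LHP1 (AT5G17690, chromosome 5) was read at 10.2, 8.33 and 9.81 CPM in the 3 mock lhp1 libraries, and at 20.7, 13.9 and 18.6 CPM in mock WT. The groups did not overlap, and mock WT replicate 2 was the lowest of its group. The log2 fold change was −0.91 ± 0.14 (approximate SE, edgeR adjusted p = 0.00116), or −1.06 without that library, so RNA from the locus remained in every mutant library. Where in the gene the remaining reads lie cannot be read from counts per gene.

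Genes for the Polycomb machinery passed the test no more often than all tested genes, of which 11.1% were higher and 14.4% lower. Of 9 tested genes for PRC1-type proteins and partners, LHP1 fell and EMF1 rose, and the list's median log2 fold change was −0.08 (0.07 with total-count scaling), against 0.00 over all tested genes. EMF1, a plant-specific PRC1-type protein, was at 19.9, 28.6 and 25.6 CPM in mock WT and 32.4, 40.2 and 34.0 CPM in mock lhp1, without overlap. Its rise was 0.52 ± 0.13 on the log2 scale (edgeR adjusted p = 0.0153), and leaving out mock lhp1 replicate 2 ended the call (adjusted p = 0.0718). Of 17 tested genes for PRC2 subunits and Polycomb antagonists, ULT1, a SAND-domain antagonist, fell (−0.39 ± 0.11, edgeR adjusted p = 0.0261, −0.51 without replicate 2), a call lost in 5 of the 6 fits that left 1 library out and with total-count scaling. The PRC2 methyltransferase genes CLF and SWN were at log2 fold changes of 0.06 and −0.08 (edgeR adjusted p = 0.582 and 0.341).

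The tested floral homeotic genes were higher in mock lhp1. All 10 tested floral organ identity genes were higher in all 3 mock lhp1 libraries than in any mock WT library, 6 were called higher and none lower, and the median log2 fold change was 2.11. Without mock WT replicate 2, 9 of 11 tested were called higher, against 15.6% of all genes tested in that fit. The other 4 genes of the list, AP1, CAL, FUL and LFY, had too few counts for the test in the fit with all libraries. Members with few wild-type counts, such as SEP1, SEP2, STK and PI, had little room to fall. They could enter the test through their mutant counts alone. The 10 of 10 and the median of 2.11 therefore depend partly on which genes had enough counts to be tested. SEP3, at 26.4 CPM or more in each mock WT library, did not have this limit. AP1, which specifies the floral meristem and outer whorls, stayed at or below 0.352 CPM in all 6 libraries, and the meristem identity gene LFY at or below 0.108 CPM.

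SEP3 (AT1G24260, chromosome 1, 8593536 to 8596123), a MADS-box partner of the floral organ regulators, had the highest counts of the list. It was read at 27.8 CPM in replicate 1 of mock WT, 94.6 in replicate 2 and 26.4 in replicate 3, while the mutant libraries stood at 156 to 159 CPM. Its log2 fold change was 1.66 ± 0.38 (edgeR adjusted p = 0.00992), and 2.54 without replicate 2. AG (AT4G18960, chromosome 4, 10382856 to 10388539), which specifies stamens and carpels, was at 0.837, 5.67 and 1.09 CPM in mock WT and 11.4, 10.7 and 12 CPM in mock lhp1. The change was 2.14 ± 0.50 (edgeR adjusted p = 0.0103), and 3.54 without replicate 2. For both genes replicate 2 stood far above the other wild-type libraries and below all mutant ones, and both calls held in each fit that left 1 library out.

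The remaining called members were SEP1, STK, SHP2 and its close relative SHP1, the last rising by 1.39 ± 0.39 on the log2 scale (edgeR adjusted p = 0.0254, 2.3 without replicate 2). SEP1, another SEPALLATA partner, was at 0.209, 6.47 and 0.151 CPM in mock WT against 13.2–14.7 CPM in mock lhp1 (log2 change 2.55 ± 0.78, edgeR adjusted p = 0.0334, 6.22 without replicate 2). STK, an ovule identity gene, was at 0.0419, 1.08 and 0.0377 CPM against 2.15–2.75 CPM (2.55 ± 0.71, edgeR adjusted p = 0.0223). SHP2, a carpel margin and valve margin gene, was at 0.293, 8.74 and 0.453 CPM against 14.2–16.7 CPM (2.25 ± 0.75, edgeR adjusted p = 0.0481, 5.34 without replicate 2). Calls for these 3 genes and SHP1 were lost when any of several other libraries was left out, with adjusted p up to 0.0955 for SEP1, 0.0759 for STK, 0.12 for SHP2 and 0.0852 for SHP1. Without replicate 2 they were 7.36e-08, 1.43e-05, 1.51e-07 and 1.01e-05. The petal and stamen genes AP3 and PI did not pass with all libraries (edgeR adjusted p = 0.0561 and 0.0572), and their log2 fold changes without replicate 2 were 5.93 and 4.94 (adjusted p = 3.5e-09 and 3.5e-07). AP3 was at 0.544, 16.4 and 0.415 CPM in mock WT against 28.8–30.2 CPM in mock lhp1. SEP4, which was already at 3.73 to 4.19 CPM in mock WT, was at 4.84 to 5.15 CPM in mock lhp1 and did not pass in either fit (edgeR adjusted p = 0.111 and 0.138).

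**Figure D2:**
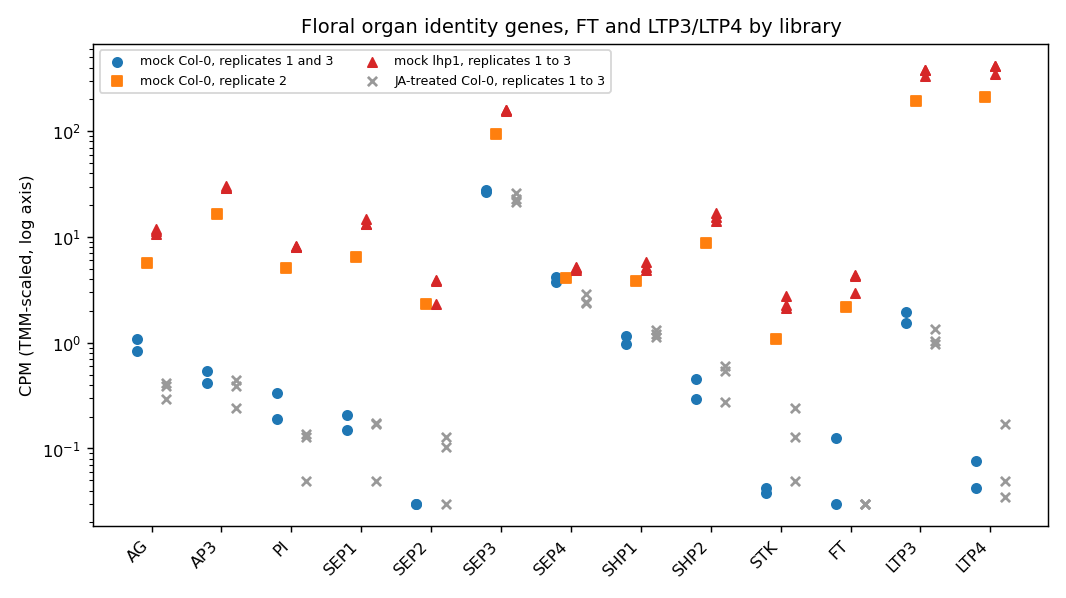
The vertical axis, on a log scale, gives CPM of the 10 tested floral organ identity genes, FT and the lipid transfer protein genes LTP3 and LTP4; each marker is 1 library, and values below the lower edge, zeros included, are drawn at the edge. Mock WT replicate 2 (orange squares) lies between the other mock WT libraries (blue circles) and mock lhp1 (red triangles) for most genes, as for SEP3 at 94.6 CPM. JA-treated Col-0 libraries (grey crosses) lie near or below mock WT replicates 1 and 3. They had jasmonate, so the mock level of wild type without replicate 2 rests on replicates 1 and 3 alone.

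Flowering time genes moved in both directions. Of 20 tested, 4 rose and 5 fell (6 and 4 with total-count scaling), against 11.1% and 14.4% of all tested genes. Without mock WT replicate 2, 8 rose and 5 fell, against 15.6% and 16.9%. FT, the mobile flowering signal, was read at 0.126, 2.17 and 0 CPM in mock WT and 4.36, 2.98 and 4.26 CPM in mock lhp1, so the groups did not overlap but replicate 2 came close. The change did not pass with all libraries (log2 change 2.29 ± 0.85, edgeR adjusted p = 0.0795) and did without mock WT replicate 2 (5.90, edgeR adjusted p = 5.67e-05). Replicates 1 and 3 together held 3 counts of FT against 245 in mock lhp1, a ratio per scaled library of 65.4 (exact 95% counting interval 22.1 to 319).

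The rises were in GI, AGL17, AGL24 and TFL1. AGL24, a MADS-box promoter of flowering, went from 1.67, 6.00 and 1.92 CPM in mock WT to between 8.33 and 10.4 CPM in the mutant (log2 change 1.54 ± 0.38, edgeR adjusted p = 0.0136, 2.38 without replicate 2). TFL1, a repressor of floral meristem identity, rose by 1.1 ± 0.28 (edgeR adjusted p = 0.0166, 1.45 without replicate 2). None of the 4 rises was called in every fit that left 1 library out. The falls were all in repressors of flowering: SNZ, SVP, TEM2, TOE1 and TEM1, and all but the TEM1 call held in each such fit. SNZ, an AP2-type repressor, was at 11.2, 6.79 and 11.1 CPM in mock WT against 1.67–1.82 CPM in mock lhp1, a change of −2.46 ± 0.21 (edgeR adjusted p = 0.000109). SVP, a MADS-box repressor, was at 37.7, 26.4 and 31.4 CPM against 17.7–19.4 CPM (−0.78 ± 0.12, edgeR adjusted p = 0.00143, −0.9 without replicate 2). The vernalization-controlled repressor FLC (0.56 ± 0.26, edgeR adjusted p = 0.132, 0.7 without replicate 2) and the integrator SOC1 (0.36 ± 0.17, edgeR adjusted p = 0.134) did not pass, nor did they without replicate 2 (adjusted p = 0.0797 and 0.0637).

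In the meristem list, 3 of 15 tested genes rose and 1, CLV1, fell, against 11.1% and 14.4% of all tested genes. PNY and ATH1, BELL-type homeodomain partners of KNOX proteins, rose by 0.68 ± 0.12 and 0.68 ± 0.15 on the log2 scale (edgeR adjusted p = 0.00234 and 0.00773, 0.81 and 0.85 without replicate 2), and KNAT6 by 0.47 ± 0.16 (adjusted p = 0.0468, 0.54 without replicate 2). The KNAT6 and CLV1 calls were lost in some fits that left 1 library out (edgeR adjusted p up to 0.155 and 0.0858). The KNOX gene STM was at 4.69, 4.48 and 3.81 CPM in mock WT and 5.05, 4.04 and 4.48 CPM in mock lhp1, and KNAT1 at 11.7 to 14.4 CPM against 12.6–13.2 CPM. Both sets of libraries overlapped, and neither gene passed (edgeR adjusted p = 0.815 and 0.916). The seed programme was mostly below detection by this test: of 19 seed maturation genes 4 were tested with 1 called, and LEC1 and ABI4 were at 0 CPM in all 6 libraries. ABI5 was called higher (0.78 ± 0.26, edgeR adjusted p = 0.046), but not without replicate 2 (0.81, adjusted p = 0.0624). In the fit without replicate 2 the storage protein genes CRA1, CRU3 and SESA4, not tested with all libraries, were called higher instead (edgeR adjusted p = 0.0295, 0.0205 and 0.0115). The mutant libraries held 1, 30 and 17 reads of CRA1 and 0, 26 and 23 of CRU3, so mutant replicate 1 was at the wild-type level for both, and 12, 7 and 15 reads of SESA4.

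Beyond the lists, a set of genes was nearly silent in wild type and clearly counted in the mutant. By their levels, 37 tested genes had a mean below 1 CPM in JA WT and in mock WT replicates 1 and 3, and at least 5 CPM in mock lhp1. Every one was at 1 CPM or more in mock WT replicate 2, which lay 38.5% to 64.2% of the way to mock lhp1 on the CPM scale (median 53.8%). These levels chose the genes, so their height in mock lhp1 is a description. The calls and adjusted p-values given for them here rest on the same levels and are no separate support. With all libraries 22 of the 37 were called higher. The 8 largest of those rises included SEP1, the tubby-like gene TLP5, the B3-domain gene AT5G60140 and the TRAF-like gene AT3G58250. TLP5 was at 0.167, 2.28 and 0.264 CPM in mock WT against 5.25–5.64 CPM in mock lhp1 (log2 change 2.56 ± 0.59, edgeR adjusted p = 0.0103, 4.62 without replicate 2). AT5G60140 was at 0.293, 4.95 and 0.113 CPM against 12.4–12.7 CPM (2.77 ± 0.72, edgeR adjusted p = 0.0176, 5.94 without replicate 2), a call lost without any 1 mutant library (adjusted p up to 0.0561).

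The share of genes called higher was 9.46% below 1 CPM in JA WT and 13.7% at 100 CPM and over, while changes of at least 2-fold were distributed otherwise. Among the 1914 tested genes below 1 CPM in JA WT, 8.57% rose at least 2-fold and 2.3% fell as much. Among the 2076 genes at 100 CPM and over, 0.53% rose and 4.53% fell at least 2-fold. Between them, at 1 to 10 CPM, the shares were 2.09% and 2.6%. Genes below 1 CPM in JA WT had little room to fall and could enter the test through high counts in mock lhp1 alone. Rises and falls at that level therefore cannot be compared evenly, and the shares are a description.

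The 12 largest named rises among called, well-counted genes were EXO70H8, SADHU5-1, BGLU45, SHP2, SEP1, NAT8, TT10, RD20, AG, MIOX1, RNS1 and LLG2, with log2 fold changes of 2.08 to 2.55. LTP3, LTP4 and AP3 had changes within that range (2.47, 2.47 and 2.31) but were not called with all libraries, so they were not ranked. EXO70H8, an exocyst subunit gene, was at 0.502, 5.82 and 0.339 CPM in mock WT against 9.98–14 CPM in mock lhp1 (2.35 ± 0.67, edgeR adjusted p = 0.0247, 4.78 without replicate 2). SADHU5-1, annotated as a Sadhu retroelement, was at 1.63, 18.2 and 1.73 CPM against 36.3–37.9 CPM (2.34 ± 0.64, edgeR adjusted p = 0.0209, 4.46 without replicate 2). RNS1, a secreted ribonuclease gene, was at 2.68, 31.4 and 3.28 CPM against 52.6–55.8 CPM (2.09 ± 0.65, edgeR adjusted p = 0.0361, 4.17 without replicate 2). In each of these, replicate 2 stood far above the other wild-type libraries, and the changes were larger without it. Only AG among the 12 was called in each fit that left 1 library out.

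A pair of lipid transfer protein genes showed a wide spread within wild type. LTP4 was read at 0.0419, 211 and 0.0754 CPM in mock WT against 350–415 CPM in mock lhp1, and LTP3 at 1.55, 192 and 1.96 CPM against 332–377 CPM. Neither passed with all libraries (edgeR adjusted p = 0.203 and 0.144), and both did without mock WT replicate 2 (adjusted p = 4.12e-11 for each). The log2 change of LTP3 was 2.47 with all libraries and 7.68 without mock WT replicate 2, while LTP4 then had only 3 reads in mock WT. Their coding sequences were 84.5% identical, so reads may be shared between them. LTP5 of the same family fell (466, 321 and 395 CPM against 184–206 CPM, a log2 change of −0.99 ± 0.12 with an edgeR adjusted p of 0.000332, −1.12 without replicate 2), and LTP6 rose by 0.41 ± 0.09 (edgeR adjusted p = 0.00838, 0.51 without replicate 2).

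The largest falls were steadier. The 12 largest named falls among called, well-counted genes, MRD1, CYP706A6, HEC1, YAB5, FER1, LHB1B1, EXPA8, GASA6, MAKR6, ORP4C, DCF and RGF9, had log2 fold changes of −6.81 to −2.55, and each was called in each fit that left 1 library out. MRD1 (AT1G53480, chromosome 1, 19963047 to 19964712), annotated as MTO1 responding down 1, was at 35.9, 16.7 and 34.9 CPM in mock WT and 0.49, 0.101 and 0.176 CPM in mock lhp1. Its log2 fold change was −6.81 ± 0.43 (edgeR adjusted p = 9.08e-05), which left 0.892% of the wild-type level. Its neighbour HEI10, a meiotic crossover gene, was at 11.4, 6.00 and 8.86 CPM against 1.45–2.35 CPM (−2.12 ± 0.26, edgeR adjusted p = 0.000377, −2.34 without replicate 2).

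HEC1, a bHLH gene of carpel development, was at 17.4, 10.2 and 17.0 CPM in mock WT against 1.89–2.37 CPM in mock lhp1 (log2 change −2.85 ± 0.23, edgeR adjusted p = 0.000109, −3.06 without replicate 2). YAB5, a YABBY gene of the lower leaf face, was at 18.6, 9.14 and 13.7 CPM against 1.51–2.26 CPM (−2.78 ± 0.25, edgeR adjusted p = 0.000142, −3.01 without replicate 2). FER1, the iron storage protein ferritin, was at 228, 526 and 996 CPM against 86.3–89.7 CPM (−2.73 ± 0.45, edgeR adjusted p = 0.00193, −2.8 without replicate 2). Mutant and wild-type libraries did not overlap for any of these genes. In HEC1 and YAB5 replicate 2 was the lowest wild-type library, while in FER1, where wild-type libraries spread most, it was not. MAKR6, a membrane-associated kinase regulator gene, was at 24.7, 17.2 and 28.2 CPM against 3.74–3.99 CPM (−2.59 ± 0.19, edgeR adjusted p = 9.08e-05, −2.77 without replicate 2). CYP706A6, a cytochrome P450 gene, was at 29.4, 17.4 and 39.0 CPM against 2.37–3.92 CPM (−3.21 ± 0.28, edgeR adjusted p = 0.000122, −3.47 without replicate 2), and the next gene, CYP706A5, fell by 2.2 on the log2 scale.

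**Figure D3:**
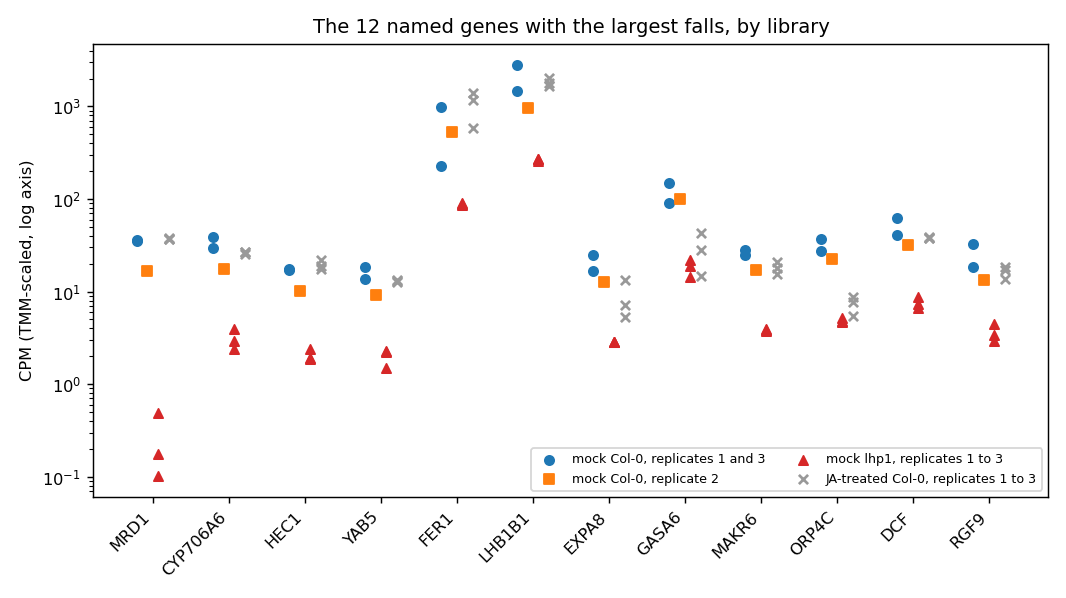
The vertical axis, on a log scale, gives CPM of the 12 named genes with the largest falls; each marker is 1 library. All 3 mock lhp1 libraries (red triangles) lie below all 3 mock WT libraries for every gene, and mock WT replicate 2 (orange squares) lies nearer to mock lhp1 than replicates 1 and 3 do for most, as for MRD1 at 16.7 CPM.

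Promoters of genes that changed at least 2-fold held the RY element more often than promoters at large. The RY element, CATGCA on either strand, is bound by B3-domain proteins, among them VAL1 and VAL2, which are known to recruit Polycomb proteins. Within the 250 bases before the RefSeq gene start, 7.81% of 20282 tested promoters held it, against 15.1% of 371 promoters of genes at least 2-fold higher and 14.8% of 465 at least 2-fold lower. The difference was present in both directions and in levels from 1 CPM up: in genes at 1 to 10 CPM in JA WT, 17.6% of the 2-fold changed genes held the element against 8.79% of all. Below 1 CPM the shares were 11.9% and 11.4%. VAL1 and VAL2 themselves did not pass (log2 fold changes −0.08 and −0.09, edgeR adjusted p = 0.466 and 0.499). Shares of the other 4 motifs searched, each on both strands, were closer to those of all promoters. They were the telobox AAACCCTA (2.7% of higher and 2.37% of lower genes against 3.51%), the GA repeat GAGAGA (20.2% and 20.4% against 19.4%), the G-box CACGTG (7.82% and 8.39% against 7.2%) and the I-box GATAAG (14.3% and 17.6% against 12.3%). These shares were not tested, and a match is not a binding site.

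The promoters of 3 named genes that rose (STK, EXO70H8, ANAC055) and 3 that fell (HEC1, CYP706A6, MAKR6) are shown because each holds 1 RY element, at varied distances from the gene start. ANAC055, a NAC transcription factor gene of stress and jasmonate responses, rose by 1.91 ± 0.51 on the log2 scale (edgeR adjusted p = 0.0192, 2.94 without replicate 2). The sequences are the 250 bases before each gene, 5′ to 3′ on the gene's strand, from the RefSeq assembly TAIR10.1, and capitals mark the RY element, written TGCATG where it lies on the other strand. The positions are STK, chr4:6241282-6241531, minus strand; EXO70H8, chr2:12291093-12291342, minus strand; ANAC055, chr3:5234207-5234456, plus strand. Those of the falls are HEC1, chr5:26765742-26765991, plus strand; CYP706A6, chr4:7316872-7317121, minus strand; MAKR6, chr5:21453981-21454230, minus strand.
STK: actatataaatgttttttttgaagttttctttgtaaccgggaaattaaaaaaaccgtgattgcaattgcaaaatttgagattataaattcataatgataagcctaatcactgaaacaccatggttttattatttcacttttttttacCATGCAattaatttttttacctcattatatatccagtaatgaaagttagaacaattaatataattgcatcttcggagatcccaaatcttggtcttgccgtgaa
EXO70H8: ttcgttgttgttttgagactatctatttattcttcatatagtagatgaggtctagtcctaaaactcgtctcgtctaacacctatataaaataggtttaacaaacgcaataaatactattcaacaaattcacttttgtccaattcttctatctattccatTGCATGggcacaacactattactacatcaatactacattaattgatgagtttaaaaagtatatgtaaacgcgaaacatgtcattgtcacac
ANAC055: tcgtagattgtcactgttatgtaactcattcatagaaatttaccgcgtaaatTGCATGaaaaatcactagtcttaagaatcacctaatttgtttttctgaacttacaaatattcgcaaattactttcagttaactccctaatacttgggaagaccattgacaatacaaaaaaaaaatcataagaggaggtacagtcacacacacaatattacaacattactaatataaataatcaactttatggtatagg
HEC1: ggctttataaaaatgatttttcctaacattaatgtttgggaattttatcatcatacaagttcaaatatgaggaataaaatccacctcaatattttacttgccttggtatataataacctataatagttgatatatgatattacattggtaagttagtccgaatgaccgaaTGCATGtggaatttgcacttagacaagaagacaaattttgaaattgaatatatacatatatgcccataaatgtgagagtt
CYP706A6: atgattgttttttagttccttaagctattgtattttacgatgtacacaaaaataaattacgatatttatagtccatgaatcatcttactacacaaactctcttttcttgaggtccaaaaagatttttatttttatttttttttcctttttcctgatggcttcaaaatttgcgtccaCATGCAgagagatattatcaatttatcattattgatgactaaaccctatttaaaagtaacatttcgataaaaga
MAKR6: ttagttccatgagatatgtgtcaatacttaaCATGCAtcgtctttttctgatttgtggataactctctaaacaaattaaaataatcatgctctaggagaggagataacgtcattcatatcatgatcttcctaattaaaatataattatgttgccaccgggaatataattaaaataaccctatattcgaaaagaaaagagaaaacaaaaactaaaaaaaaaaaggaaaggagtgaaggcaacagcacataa

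Photosynthesis genes fell together, while 14.4% of all tested genes were called lower. All 19 genes of the antenna, Rubisco small subunit and photosystem list fell, with a median log2 fold change of −1.14 (−1.30 without mock WT replicate 2) and changes of −1.68 to −0.91, and all 19 were called in each fit that left 1 library out. Summed over the list, the level was 91400, 56500 and 69100 CPM in mock WT against 31900–32800 CPM in mock lhp1, so the mutant libraries were alike and the wild-type ones spread. LHCB1.3, an antenna gene, was at 17900, 10100 and 11300 CPM in mock WT against 5750–6320 CPM in mock lhp1 (−1.11 ± 0.17, edgeR adjusted p = 0.00138, −1.27 without replicate 2). RBCS2B, a Rubisco small subunit gene, was at 2210, 1390 and 1900 CPM against 559–585 CPM (−1.68 ± 0.14, edgeR adjusted p = 0.000109, −1.85 without replicate 2), and RBCS1B and RBCS3B beside it fell by 1.55 and 1.48. LHB1B1, an antenna gene outside the list, fell further, from 2830, 969 and 1460 CPM to 257 to 273 CPM (−2.72 ± 0.30, edgeR adjusted p = 0.00027, −3.01 without replicate 2). CA1, chloroplast carbonic anhydrase, was at 1460, 705 and 867 CPM against 214–235 CPM (−2.16 ± 0.22, edgeR adjusted p = 0.0002, −2.37 without replicate 2). Reads of near-identical LHCB1 and RBCS genes may be shared between copies.

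A wider group, the 45 tested genes annotated as photosystem components, had 42 calls lower and 1 higher (PSBP-2, by 1.29), and 41 of the lower calls held in each fit that left 1 library out. With total-count scaling in place of TMM the median of all tested genes was 0.15 on the log2 scale, and these 45 genes still had a median of −0.84. ESM1, a myrosinase-associated protein gene of leaves, was lower as well, at 772, 564 and 1010 CPM against 192–201 CPM (−2.01 ± 0.17, edgeR adjusted p = 0.000116, −2.19 without replicate 2).

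Genes of light-controlled growth were lower too. In the light and shade list 4 of 6 tested genes fell and none rose: PIF4, PIF3, HB2 and PIF5, with the median of the list at −0.86. PIF4, a bHLH factor that promotes elongation in shade and warmth, was at 65.4, 43.4 and 57.8 CPM in mock WT against 24.2–25 CPM in mock lhp1 (−1.17 ± 0.13, edgeR adjusted p = 0.000263, −1.32 without replicate 2). HB2 (ATHB2), a shade-induced homeodomain gene, was at 18.1, 12.1 and 15.2 CPM against 7.39–8.53 CPM (−0.91 ± 0.16, edgeR adjusted p = 0.00269, −1.05 without replicate 2). NPH3, the phototropism signalling gene, fell by 1.09 ± 0.14 (edgeR adjusted p = 0.000549, −1.24 without replicate 2), and 13 of 30 tested genes of its annotated family were called lower and 2 higher, against 14.4% and 11.1% of all tested genes. Without mock WT replicate 2 the family had 13 and 4, with total-count scaling 7 lower and 4 higher, and 7 of the lower calls held in every fit that left 1 library out. In the clock list PRR7 was lower (−0.41 ± 0.07, edgeR adjusted p = 0.00296, −0.48 without replicate 2) and the other 10 tested genes did not pass.

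Among auxin genes, most calls in the SAUR-like and Aux/IAA families were lower too, while auxin synthesis and cell wall genes were split. Of 62 tested SAUR-like genes, which are small auxin-responsive genes that promote expansion growth, 33 were lower and 3 higher (53.2% and 4.84%, against 14.4% and 11.1% of all tested genes), with a median of −0.85. Leaving replicate 2 of mock WT out gave 35 lower and 5 higher. Of the 33, 31 were called in each fit that left 1 library out. SAUR19 was read at 1.55, 0.614 and 1.09 CPM in mock WT against 0.0505–0.132 CPM in mock lhp1, a fall of 3.43 ± 0.53 on the log2 scale (edgeR adjusted p = 0.00127, −3.72 without replicate 2). It shared 89.5% of its coding sequence with SAUR20 beside it, which fell by 2.42. Summed over the family, the level was 489, 406 and 435 CPM in mock WT against 297–318 CPM in mock lhp1.

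Of 28 tested Aux/IAA genes, which encode auxin co-repressors, 13 were lower and 2 higher by symbol prefix. These shares were 46.4% and 7.14%, against 14.4% and 11.1% of all tested genes. In every fit that left 1 library out, 7 of the lower and 2 of the higher calls held. Total-count scaling gave 10 lower and 5 higher. IAA29, which the PIF factors are known to induce, was at 5.02, 1.66 and 2.56 CPM in mock WT against 0.147–0.303 CPM in mock lhp1 (−3.75 ± 0.59, edgeR adjusted p = 0.0014, −4.05 without replicate 2). The prefix match also took in MP, the auxin response factor MONOPTEROS, through a synonym, and MP was 1 of the 2 rises (0.63 ± 0.11, edgeR adjusted p = 0.00279, 0.79 without replicate 2). In the auxin synthesis list 3 of 10 tested genes were lower and 1 higher (2 and 4 with total-count scaling). TAA1 and YUC8 fell by 1.2 ± 0.15 and 1.35 ± 0.21 (edgeR adjusted p = 0.000422 and 0.00115, −1.38 and −1.52 without replicate 2). Levels of TAA1 were 44.4, 28.3 and 42.0 CPM in mock WT against 15.2–17.6 CPM in mock lhp1. YUC6, in contrast, was called higher (0.43 ± 0.13, edgeR adjusted p = 0.0341, 0.54 without replicate 2), a call lost without either of 2 mock WT or 2 mock lhp1 libraries.

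Cell wall loosening genes were split. Of 18 alpha-expansin genes 7 were lower and 3 higher (38.9% and 16.7%, against 14.4% and 11.1% of all tested genes). Of 28 XTH genes 9 were lower and 5 higher (32.1% and 17.9%), with 6 and 7 under total-count scaling. In every fit that left 1 library out, 7 lower and 2 higher alpha-expansin calls held, and 6 and 3 XTH calls. EXPA8 was at 25, 12.7 and 16.7 CPM in mock WT against 2.84–2.88 CPM in mock lhp1 (−2.66 ± 0.35, edgeR adjusted p = 0.000501, −2.86 without replicate 2). XTH24 went the other way, at 67.5, 225 and 67.7 CPM against 349–359 CPM (1.55 ± 0.38, edgeR adjusted p = 0.0126, 2.38 without replicate 2). The growth-regulating TCP genes had 10 of 21 called lower, among them the leaf-margin genes TCP2, TCP3, TCP4 and TCP10 at −0.68 to −0.66, and 1 higher, TCP1 (2.18 ± 0.70, edgeR adjusted p = 0.0414, 3.86 without replicate 2). These shares were 47.6% and 4.76%. Of the lower TCP calls, 8 held in every fit that left 1 library out, while the TCP1 call did not. In the gibberellin list 4 of 12 fell and 3 rose, with 6 and 3 without mock WT replicate 2. GASA6, a gibberellin-regulated peptide gene, was at 90.1, 101 and 148 CPM in mock WT against 14.5–22.0 CPM in mock lhp1 (−2.62 ± 0.33, edgeR adjusted p = 0.000436, −2.69 without replicate 2), and the DELLA gene GAI fell by 0.74 ± 0.12 (edgeR adjusted p = 0.00141, −0.88 without replicate 2).

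**Figure D4:**
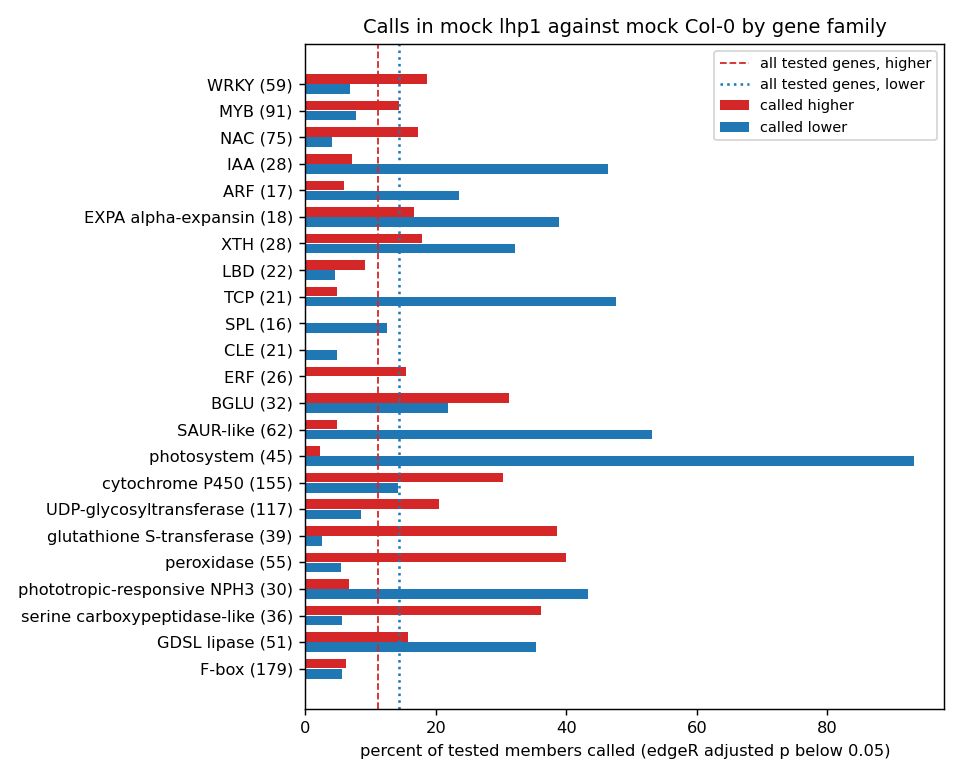
Bars give the percent of tested members of each gene family (number tested in brackets) called higher (red) or lower (blue) in mock lhp1 at an edgeR adjusted p below 0.05, and vertical lines give the same over all tested genes, 11.1% and 14.4%. Photosystem, SAUR-like, TCP and IAA genes stand above the line for lower calls, and peroxidase, glutathione S-transferase and serine carboxypeptidase-like genes above the line for higher calls.

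The series is placed by its title in jasmonate signalling, so jasmonate genes were looked at in unstimulated seedlings. Over all tested genes 11.1% were called higher and 14.4% lower, or 15.6% and 16.9% without mock WT replicate 2. Of 13 JAZ repressor genes, 1 was called higher and none lower, and 2 were higher without mock WT replicate 2. That gene was JAZ3, at 12, 14.7 and 11.9 CPM in mock WT against 18.4–18.7 CPM in mock lhp1 (log2 change 0.53 ± 0.09, edgeR adjusted p = 0.0029, 0.63 without replicate 2). JAZ10 was at 3.14, 2.56 and 3.02 CPM against 2.75–3.69 CPM, overlapping (0.16 ± 0.13, edgeR adjusted p = 0.393, 0.07 without replicate 2). The master regulator gene MYC2 did not pass with all libraries (0.33 ± 0.12, edgeR adjusted p = 0.0668) and did without mock WT replicate 2 (0.44, adjusted p = 0.0131). Of 14 jasmonate transcription factor and receptor genes 5 were called higher and 1 lower, with 8 and 1 without that library. None of the 5 higher calls held in every fit that left 1 library out. They included the NAC genes ANAC055, ANAC019 and ANAC072, and ANAC055 was at 0.293, 2.38 and 0.867 CPM in mock WT against 3.08–5.98 CPM in mock lhp1.

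Jasmonate synthesis genes were split, with 3 of 14 higher and 4 lower (4 and 3 with total-count scaling), against 11.1% and 14.4% of all tested genes. AOC2, an allene oxide cyclase gene, was at 36.3, 26.7 and 50.6 CPM in mock WT against 6.26–7.65 CPM in mock lhp1 (−2.40 ± 0.21, edgeR adjusted p = 0.000122, −2.6 without replicate 2). AOC1 beside it, 89.9% identical to it over the coding sequence, fell by 1.42 ± 0.17, and AOS, the allene oxide synthase gene, by 0.81 ± 0.17 (edgeR adjusted p = 0.000359 and 0.00701, −1.55 and −0.96 without replicate 2). AOC3 rose, from 18.5, 20.9 and 12.9 CPM to 30.8 to 36.2 CPM (0.92 ± 0.15, edgeR adjusted p = 0.00148, 1.08 without replicate 2). ST2A, a sulfotransferase gene for hydroxyjasmonate, was at 25.6, 11.9 and 13.9 CPM against 3.99–4.27 CPM (−2.05 ± 0.29, edgeR adjusted p = 0.000714, −2.26 without replicate 2).

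Among output genes of the MYC branch, 3 of 7 rose and none fell, against 11.1% and 14.4% of all tested genes. The median of the list was still −0.22, since the other 4 had negative changes that did not pass. VSP2, a vegetative storage protein gene, was at 0.502, 1.99 and 0.264 CPM in mock WT against 2.93–5.00 CPM in mock lhp1 (2.02 ± 0.45, edgeR adjusted p = 0.00868, 3.32 without replicate 2). VSP1 was at 1.47, 6.97 and 1.55 CPM against 10.4–11.8 CPM (1.73 ± 0.44, edgeR adjusted p = 0.0149, 2.89 without replicate 2), and CORI3 at 13.6, 93.8 and 35.7 CPM against 156–158 CPM (1.71 ± 0.48, edgeR adjusted p = 0.0239, 2.66 without replicate 2). In the ERF branch 2 of 8 rose (4 without mock WT replicate 2): the chitinase gene PR3 (1.09 ± 0.18, edgeR adjusted p = 0.00199, 1.36 without replicate 2) and ORA59 (0.32 ± 0.09, edgeR adjusted p = 0.027, 0.4 without replicate 2). Defensin PDF1.2a, at 0.251 to 0.903 CPM in mock WT against 0.202–1.03 CPM in mock lhp1, overlapped between the groups.

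Specialized metabolism moved mostly upward. Of 17 aliphatic glucosinolate genes, which make methionine-derived defence compounds, 10 were called higher and none lower (median 0.37), with 12 without mock WT replicate 2. Over all tested genes 11.1% were higher and 14.4% lower. Of the 10 calls, 7 held in every fit that left 1 library out. BCAT4, the aminotransferase at the start of chain elongation, was at 181, 263 and 223 CPM in mock WT against 344–358 CPM in mock lhp1 (0.66 ± 0.11, edgeR adjusted p = 0.00224, 0.8 without replicate 2). MAM1 and MAM3, the elongation synthases, rose by 0.61 ± 0.11 and 0.64 ± 0.13 (edgeR adjusted p = 0.00233 and 0.00584, 0.75 and 0.79 without replicate 2). The regulators MYB28 and MYB29 did not pass (edgeR adjusted p = 0.078 and 0.271). Of 13 indole glucosinolate genes 3 rose, CYP81F4 most (0.89 ± 0.17, edgeR adjusted p = 0.00379, 1.18 without replicate 2), and only the CYP81F4 call held in every such fit.

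Of 20 tested flavonoid and anthocyanin genes 9 were called higher and none lower (median 0.53), with 11 and 1 without mock WT replicate 2. Over all tested genes 11.1% were higher and 14.4% lower. Of the 9 calls, 5 held in every fit that left 1 library out. F3H, flavanone 3-hydroxylase, was at 36.2, 44.3 and 27.3 CPM in mock WT against 60.6–62.7 CPM in mock lhp1 (0.77 ± 0.16, edgeR adjusted p = 0.00567, 0.96 without replicate 2), and DFR, dihydroflavonol reductase, at 1.4 to 1.93 CPM against 3.29–3.58 CPM (0.97 ± 0.18, edgeR adjusted p = 0.00338, 1.05 without replicate 2). Abscisic acid, cold and dehydration genes had 7 of 16 higher and none lower, and 3 of the 7 calls held in every such fit. COR15A, a cold-regulated chloroplast protein gene, was at 0.377, 3.29 and 0.302 CPM against 6.02–6.47 CPM (2.19 ± 0.59, edgeR adjusted p = 0.0202, 4.17 without replicate 2), a call lost without any 1 mutant library. ERD10 and COR47, dehydrin genes, rose by 0.74 ± 0.15 and 0.59 ± 0.14 (edgeR adjusted p = 0.00529 and 0.0102, 0.95 and 0.82 without replicate 2). Salicylate defence genes had 3 of 15 higher and 1 lower, and none of these 4 calls held in every fit that left 1 library out.

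**Figure D5:**
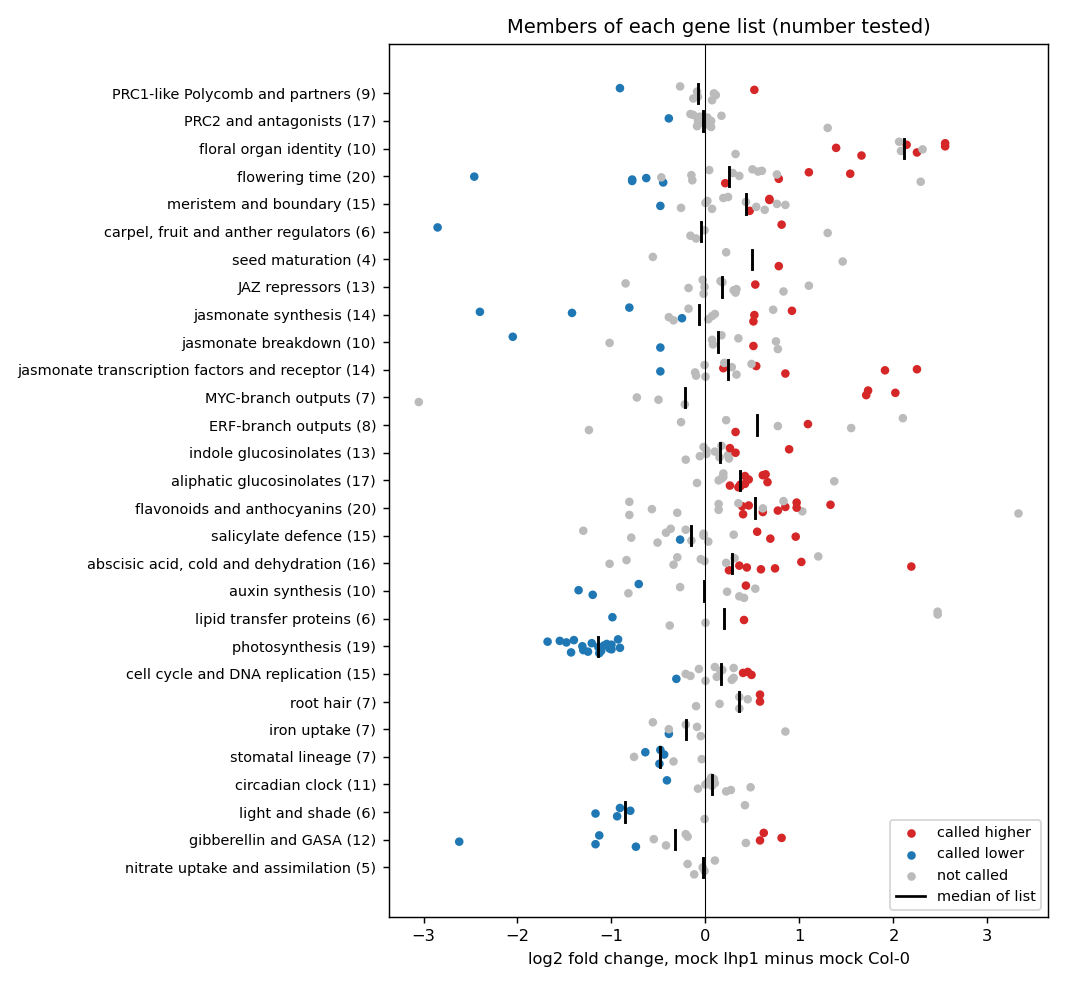
Each point is a tested gene placed by its log2 fold change (mock lhp1 minus mock WT, horizontal axis) within its list (rows, number tested in brackets); red points were called higher, blue lower, grey neither, and black lines are medians. Floral organ identity genes lie to the right with a median of 2.11, and photosynthesis genes to the left with a median of −1.14, while most other lists straddle 0.

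Several enzyme and stress families had a larger share of higher calls than all tested genes, of which 11.1% were higher and 14.4% lower. Peroxidases had 22 of 55 higher and 3 lower (40% and 5.45%), glutathione S-transferases 15 of 39 and 1 (38.5% and 2.56%), serine carboxypeptidase-like genes 13 of 36 and 2 (36.1% and 5.56%), and cytochrome P450 genes 47 of 155 and 22 (30.3% and 14.2%). The higher calls among peroxidases numbered 36 without mock WT replicate 2, those among glutathione S-transferases 19, those among serine carboxypeptidase-like genes 17 and those among cytochrome P450 genes 63. In every fit that left 1 library out 12, 8, 4 and 20 of the higher calls of these families held. The peroxidase gene AT4G37520 was at 25.1, 138 and 49.6 CPM in mock WT against 235–240 CPM in mock lhp1 (1.74 ± 0.46, edgeR adjusted p = 0.0192, 2.66 without replicate 2). NAC genes had 13 of 75 higher and 3 lower, and F-box genes 11 of 179 and 10, below the share over all tested genes in both directions. Without mock WT replicate 2 these counts were 19 and 2 for NAC genes and 15 and 18 for F-box genes.

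Most genes of the triterpene gene clusters, looked at after their values were seen, were called higher too. In the thalianol cluster on chromosome 5 all 4 genes were called higher, and the calls for CYP705A5 and AT5G47980 were lost in some fits that left 1 library out. THAS1, the thalianol synthase gene, was at 27.4, 49.2 and 21.0 CPM in mock WT against 82.5–84.1 CPM in mock lhp1 (1.36 ± 0.24, edgeR adjusted p = 0.00281, 1.79 without replicate 2). In the marneral cluster, also on chromosome 5, CYP705A12, CYP71A16 and the synthase gene MRN1 rose by 1.01 ± 0.19, 1.32 ± 0.21 and 1.14 ± 0.23 (edgeR adjusted p = 0.00352, 0.00157 and 0.00484, 1.28, 1.66 and 1.6 without replicate 2). Replicate 2 lay 36.2% to 53.2% of the way to mock lhp1 for these 3 genes. PEN3 (AT5G36150) and CYP716A2, neighbours elsewhere on chromosome 5, rose by 1.62 ± 0.48 and 2.14 ± 0.60 (edgeR adjusted p = 0.0293 and 0.0234, 2.81 and 3.56 without replicate 2). The PEN3 call was lost when any library other than mock WT replicate 2 was left out (adjusted p up to 0.0962), and the CYP716A2 call without mock lhp1 replicate 2 or 3 (0.0817 and 0.0763). CYP716A1 of the same region did not pass and overlapped between the groups (0.68, edgeR adjusted p = 0.388). In the arabidiol and baruol region PEN1, CYP705A3 and BARS1 were called higher and CYP705A1 was not (edgeR adjusted p = 0.0515), and only the PEN1 call held in every fit that left 1 library out.

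By list median, the other marker lists moved less than the photosynthesis and floral organ identity lists. Over all tested genes 11.1% were called higher and 14.4% lower. Of 7 root hair genes 2 were called higher (EXPA18 and COBL9, both by 0.58) and none lower, and summed levels were 294, 269 and 175 CPM in mock WT against 277–357 CPM in mock lhp1, overlapping. Neither call held in every fit that left 1 library out. Of 7 stomatal lineage genes 4 were lower and none higher, SPCH, FAMA, EPF2 and EPFL9, with sums of 58.9 to 65.4 CPM against 41.6–50.8 CPM. Of these only the FAMA call held in every fit that left 1 library out, and total-count scaling left 2. Cell cycle genes had 3 of 15 higher and 1 lower, with 5 higher and none lower without mock WT replicate 2. In the iron uptake list FIT alone was called, lower by 0.39, and no nitrate gene passed of 5 tested. The carpel, fruit and anther regulators, also flower markers, did not rise as a list, with a median of −0.05 over 6 tested of 15 genes. ALC was higher and HEC1 lower (2 higher and 1 lower without mock WT replicate 2). The part that tissue makeup may have in the falls of photosynthesis genes or the rises elsewhere was not tested.

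Changed genes were spread over all chromosomes, and some lay beside each other. Per chromosome 10.8% to 12% of tested genes were higher and 13.4% to 15.1% lower. Of genes at least 2-fold higher, 13.4% had a neighbour that was too, against 3.65% of all tested genes, and for lower genes 14.8% against 4.47%. Over all called genes the shares were closer, at 25.6% against 20.8% for higher and 30.7% against 26.5% for lower. The longest runs of adjacent tested genes had 4 members: SAUR26 to SAUR29 on chromosome 3 (976715 to 983768), which fell by 1.57 to 3.17, a SAUR stretch from AT1G29430 to AT1G29460 on chromosome 1 (10302585 to 10308246), which fell by 1.97 to 2.36, and AT5G37980 to AT5G38005 on chromosome 5 (15131289 to 15156088), which rose by 1.23 to 2. Other runs held LHCB1.1 to LHCB1.3, the 3 RBCS genes of chromosome 5, ANAC055 with NAC2, VSP1 with VSP2 and AOC1 with AOC2. Many of these are copies of 1 gene side by side, whose reads could be split among them, so such neighbours are not independent measurements.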

How the data were processed

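Polyadenylated RNA was measured in 9 seedling libraries, of which 6 were compared. The deposited table gives raw counts as whole numbers for 33602 genes, with no normalization by the authors, judging by its values; TopHat, HTSeq, edgeR and the build TAIR10 are named in the submitters' processing notes, without versions. The sources used here do not say whether counting used the strand. Another 3 per-library columns matched no sample and were not used. Counts of all 9 libraries entered 1 edgeR 4.0.16 model in R 4.3.3 (TMM, filterByExpr, quasi-likelihood test, two-sided, Benjamini-Hochberg adjusted p below 0.05 over all tested genes); 8312 genes had no count in any library and 20986 were tested. The value after ± is an approximate SE, the absolute log2 fold change over the square root of the F statistic. Counting intervals are exact at 95%, floors are 3 counts over a group, and both cover counting error only. Where nothing states separate cultures, p-values measure the spread between these libraries.

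The 30 gene lists (391 genes, 343 tested), the families and the members were chosen with earlier results of these data known; families by product wording and the triterpene clusters were added after values were seen. Named genes were the 12 largest rises and falls with a mean of at least 5 CPM, no overlap and a RefSeq symbol, up to 5 called members per list, 15 genes fixed by name, the 8 largest rises among near-silent genes and up to 2 per family; further ones were chosen after their values were seen. Names and coordinates came from RefSeq TAIR10.1, matched by locus for 32835 genes, whose nuclear chromosomes are those of TAIR10. Alternatives left out each library, used only the mock libraries, other scalings, no filter, a replicate term, DESeq2 1.42.0 and limma 3.58.1 voom. The fit was tested on simulated counts. Figures used matplotlib 3.10.9. Results on 1 gene family and 1 of the gene lists are not reported here.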

Additional observations from a re-analysis of the deposited data

How the results depend on the processing

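No named gene called with all libraries changed direction under any alternative, while the balance of calls and some list medians turned with total-count scaling. The 2321 higher calls ranged from 1108 (without mock lhp1 replicate 2) to 3295 (without mock WT replicate 2) when 1 library was left out, the 3023 lower calls from 2073 to 3571, and the 2-fold rises from 183 (mock WT replicate 3 left out) to 843 (replicate 2 left out). Fits that lacked mock WT replicate 3 or any mutant library took the higher calls to 1364 or fewer, and the cause was not tested. Total-count scaling gave 5045 higher and 1878 lower calls and 596 rises of at least 2-fold; it moved the median of all genes to 0.15, and the share of higher among all calls from 43.4% to 72.9%. Under it the medians of the PRC1, PRC2, jasmonate synthesis, carpel, auxin synthesis and nitrate lists turned positive (0.07 to 0.13). Size factors from DESeq2, no filter, only the 6 mock libraries, DESeq2 and voom gave 1812 to 2552 higher and 2606 to 2998 lower calls. Replicate numbers did not pair the libraries (correlations of same-numbered deviations −0.0766, −0.0106 and 0.0403), and the replicate block gave 2628 higher and 3173 lower calls. Of 165 called named genes, 95 were called in every setting. Genes near 0 counts in wild type are limited by depth.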
